A study of Mus musculus with 6 samples.

Results

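The T cell receptor complex and its first signalling steps were followed in mouse kidney through 9 genes, Cd3d, Cd3e, Cd3g, Cd4, Cd8a, Cd8b1, Lck, Zap70 and Cd28. They were chosen by name, for what their proteins do, from the 55450 genes in the table of counts. Earlier results of these data were known when they were chosen. All 9 were among the 16592 genes with enough reads to be tested. Only Cd4 had at least 10 counts in each of the 3 day-0 mice, so the other 8 entered the test through their day-21 counts, and counts over the set are given as a description.

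A T cell recognises antigen through a receptor whose alpha and beta chains bind peptide held by an MHC molecule. The receptor chains have almost no part inside the cell, so the signal is carried by the CD3 proteins and the zeta chain (Cd247). CD4 and CD8 bind the MHC molecule and bring the kinase LCK, which phosphorylates CD3 and zeta, and ZAP-70 then docks there and passes the signal on. CD28 gives the second, costimulatory signal when it meets its ligands on an antigen-presenting cell. In kidney tissue these transcripts are usually read as coming mainly from T cells, and their source cells were not measured here. NK cells also use LCK and ZAP-70, some mouse dendritic cells carry CD8 alpha, and some myeloid cells carry CD4.

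Kidney RNA was sequenced from wild-type male C57BL/6J mice, bought at 7 weeks of age and kept for 1 week before the experiment. The 3 mice of the day-21 group were gavaged each day with adenine at 0.16 g/kg together with 2.4 g/kg of potassium oxonate, a mixture used to raise uric acid and injure the kidney. The 3 mice of the day-0 group are the control, and their labels give 20% PEG as treatment. Each mouse gave 1 library. The time of sampling, the PEG on the labels and the agents differ together between the groups and cannot be told apart. Whole tissue was sequenced, so more T cells and more RNA per T cell cannot be told apart either.

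The libraries held 10963849 to 14333311 counts, and 3 counts, taken as the smallest visible level, equalled 0.179 to 0.309 CPM (counts scaled to a common library size, with a correction for composition). Kidney markers were abundant in every mouse, with a summed level of 23668 to 35323 CPM on day 0 and 7321 to 8212 CPM on day 21. The day-0 mice were not alike. Replicates 2 and 3 carried fat transcripts, with 14 and 51 counts of Adipoq and 70 and 265 counts of Cfd, against at most 2 and 8 in any other mouse. Immunoglobulin constant genes summed to 990 CPM in day-0 replicate 2 and to 138 to 334 CPM in the other 5 mice. Estimates for the 9 genes, the ratios and the counts of called genes were also made without these libraries. No such estimates are given for the receptor chains, the immunoglobulins or other single genes. The part of these libraries in the results was not tested otherwise. Leaving out both fat-carrying mice was a setting chosen after seeing the data. It leaves replicate 1 as the only day-0 mouse, which is then assumed to vary like the day-21 mice, so those estimates describe that mouse and say nothing of stability.

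Every day-21 mouse had more of each of the 9 transcripts than every day-0 mouse. A gene was called when it passed an adjusted p under 0.05 (edgeR quasi-likelihood test, Benjamini-Hochberg over all genes tested) and a fold over 1.5. By this measure 7 of the 9 rose, Cd3d, Cd3e, Cd3g, Cd4, Cd8a, Cd8b1 and Lck, and none fell. Of all genes tested, 19.6% were called higher and 15.5% lower, and every day-21 mouse was above every day-0 mouse in 30.7% and below it in 26.4%. The median log2 fold change of the 9 was 1.84, against 0.03 over all genes tested. In a two-sided exact permutation test over mice each of the 9 reached p = 0.1, the smallest that 3 mice against 3 can give.

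**Figure D1:**
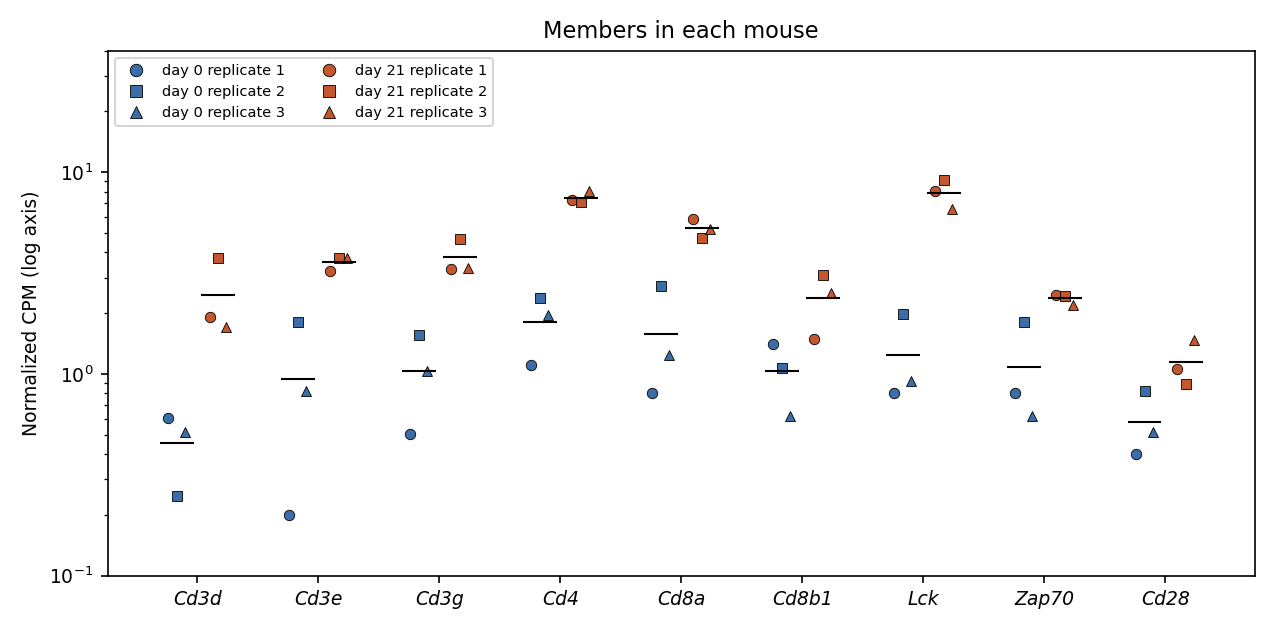
Normalized CPM on a log axis for each of the 9 genes in each mouse, with blue points for day 0, orange points for day 21, a symbol for each replicate and a line at the group mean. The orange points lie above the blue points for every gene, and the gap is narrowest for Cd8b1 and Cd28.

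Summed over the 9 genes, the level was 6.62, 14.4 and 8.24 CPM in the 3 day-0 mice and 34.7, 39.6 and 34.8 CPM in the 3 day-21 mice. Day-0 replicate 2 was the highest of its group for 7 of the 9 genes, and day-0 replicate 1 was the lowest for 6. The day-21 mice showed no such order, with replicate 2 highest for 5 genes and lowest for 3.

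The CD3 genes encode the signalling subunits that every surface T cell receptor needs, and they lie together on chromosome 9 (GRCm38). Cd3g runs from 44969572 to 44980431 on the minus strand, Cd3d from 44981786 to 44987339 on the plus strand, and Cd3e from 44998740 to 45009627 on the minus strand. Cd3g and Cd3d are read away from each other from starts 1355 bases apart, and the start of Cd3e is 27841 bases from that of Cd3d. The upstream stretches of these genes are printed because the cluster is compact and all 3 genes were called higher, and those of Lck because it had the largest fold change of the set. Each stretch is the 250 bases before the gene's start from RefSeq (GRCm38.p6), 5′ to 3′ on the gene's own strand. For Cd3e that start lies inside the gene limits given above, so the end of its stretch, at 45009612, falls within them. Capitals mark matches on either strand to 5 short motifs. These were the ETS core, spelled AGGAAG here, the core bound by RUNX factors, for which TGTGGT was searched, the E-box as CACCTG, the core of the TCF/LEF family, for which CTTTGA was used, and the TATA box, searched as TATAAA. Of the 9 genes, 6 had an entry, and Lck had a pair of starts.
Cd3d, chr9:44981536-44981785, plus strand: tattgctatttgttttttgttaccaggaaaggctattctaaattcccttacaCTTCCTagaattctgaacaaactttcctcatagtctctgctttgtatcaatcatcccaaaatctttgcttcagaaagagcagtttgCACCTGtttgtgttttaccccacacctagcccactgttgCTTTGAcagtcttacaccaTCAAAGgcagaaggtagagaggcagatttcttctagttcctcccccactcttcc
Cd3e, chr9:45009612-45009861, minus strand: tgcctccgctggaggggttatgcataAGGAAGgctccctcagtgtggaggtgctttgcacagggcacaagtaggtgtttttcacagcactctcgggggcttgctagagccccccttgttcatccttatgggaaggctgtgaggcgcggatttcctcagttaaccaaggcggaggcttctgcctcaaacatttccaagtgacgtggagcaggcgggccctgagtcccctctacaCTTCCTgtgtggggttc
Cd3g, chr9:44980432-44980681, minus strand: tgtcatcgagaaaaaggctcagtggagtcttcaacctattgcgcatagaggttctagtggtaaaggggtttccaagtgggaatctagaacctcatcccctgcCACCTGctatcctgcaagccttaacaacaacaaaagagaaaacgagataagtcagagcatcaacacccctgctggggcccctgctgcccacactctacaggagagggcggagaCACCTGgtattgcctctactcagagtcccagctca
Lck start 1, chr4:129573642-129573891, minus strand: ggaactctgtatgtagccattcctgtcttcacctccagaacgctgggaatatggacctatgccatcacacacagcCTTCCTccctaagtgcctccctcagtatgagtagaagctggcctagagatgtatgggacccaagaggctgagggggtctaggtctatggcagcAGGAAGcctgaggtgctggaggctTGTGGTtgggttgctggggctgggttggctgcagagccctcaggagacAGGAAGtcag
Lck start 2, chr4:129558373-129558622, minus strand: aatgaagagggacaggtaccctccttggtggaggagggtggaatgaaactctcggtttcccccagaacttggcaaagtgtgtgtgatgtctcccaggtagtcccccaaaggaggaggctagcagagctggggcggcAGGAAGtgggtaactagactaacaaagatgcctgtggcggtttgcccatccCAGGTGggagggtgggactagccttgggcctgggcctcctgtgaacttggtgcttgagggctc

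The ETS core stood in 4 of these 5 stretches, in Cd3d, Cd3e and both of Lck, and in 29.5% of 32851 promoters of the same length. The E-box stood in 3 of the 5, in Cd3d, Cd3g and Lck start 2, against 17.2% of all promoters. Among the printed stretches the RUNX core was found once, 58 bases before Lck start 1 (14.0% of all promoters). The TCF/LEF core stood in Cd3d alone of these, where it occurs on both strands (13.8%). No stretch held TATAAA, which 12.4% of promoters do. No match overlapped another. Of the entries not printed, Cd8a, also called higher, held none of the 5 motifs. Zap70 had 3 starts, with the ETS core in starts 1 and 2 and the E-box in starts 1 and 3. The TCF/LEF core stood in Zap70 start 1 and the RUNX core in start 2. These matches describe the letters and were not tested as binding sites.

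Cd3d encodes CD3 delta. The day-0 counts were 6, 3 and 5 and the day-21 counts 27, 63 and 28, so day-0 replicate 2 was at the smallest visible level and day-21 replicate 2 stood well above its group mates. The mean went from 0.455 ± 0.185 to 2.46 ± 1.13 CPM (SD, n = 3 each). This was a 5.46-fold rise, with a log2 fold change of 2.45 (SE 0.51, 95% confidence interval 1.30 to 3.59, edgeR adjusted p = 0.00316). Against day-0 replicate 1 alone, without both fat-carrying mice, the log2 fold change was 2.02 and was not called (adjusted p = 0.0631).

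Cd3e encodes CD3 epsilon, the subunit most used to mark T cells. Its counts were 2, 22 and 8 on day 0 and 46, 63 and 61 on day 21, and the day-0 mice were far more scattered, with a coefficient of variation of 86.0% against 7.99%. The mean went from 0.946 ± 0.813 to 3.58 ± 0.286 CPM (SD, n = 3), a log2 fold change of 1.86 (SE 0.52, interval 0.71 to 3.02, edgeR adjusted p = 0.0141). The value depended on which day-0 mouse was left out, being 1.38 without replicate 1, 2.79 without replicate 2 and 1.73 without replicate 3, and it was called each time. Against replicate 1 alone, with its 2 counts, it was 4.10. Of the exon bases of Cd3e, 3.31% are shared with Gm48719 on the other strand, which had 4, 3 and 2 day-0 counts and 5, 25 and 13 day-21 counts.

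Cd3g encodes CD3 gamma. The gene had 5, 19 and 10 day-0 counts and 47, 78 and 55 day-21 counts. Its mean went from 1.03 ± 0.532 to 3.78 ± 0.755 CPM (SD, n = 3), a 3.58-fold rise with a log2 fold change of 1.84 (SE 0.41, interval 0.93 to 2.74, edgeR adjusted p = 0.00422). Leaving out single mice gave 1.498 to 2.30, and replicate 1 as the only control gave 2.90. The intervals of the 3 CD3 genes overlapped widely, and no difference between their changes was tested.

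CD4 marks helper and regulatory T cells and binds MHC class II. Cd4 lies on chromosome 6 from 124864692 to 124888221 (minus strand). It had 11, 29 and 19 day-0 counts and 103, 119 and 131 day-21 counts, and the day-21 mice were close together. The mean went from 1.82 ± 0.655 to 7.47 ± 0.490 CPM (SD, n = 3), a 4.05-fold rise with a log2 fold change of 2.02 (SE 0.30, interval 1.36 to 2.68, edgeR adjusted p = 0.000338). Cd4 was called each time a single mouse was left out, with a log2 fold change of 1.75 to 2.28. Against day-0 replicate 1 alone, the lowest control, it was 2.75.

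CD8, the coreceptor for MHC class I, is made of an alpha and a beta chain whose genes are neighbours on chromosome 6, with starts 50639 bases apart. Cd8a (71373427 to 71379173, plus strand) had 8, 33 and 12 day-0 counts and 83, 79 and 85 day-21 counts. The mean went from 1.59 ± 1.01 to 5.26 ± 0.579 CPM (SD, n = 3), with a log2 fold change of 1.69 (SE 0.39, edgeR adjusted p = 0.00563). It was 1.35 without day-0 replicate 1, 2.36 without replicate 2, the highest of its group, and 1.51 without replicate 3, and it was called each time. Against replicate 1 alone it was 2.70.

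Cd8b1 (71322788 to 71337494, plus strand) encodes the beta chain, which in most tissues is more restricted to T cells than the alpha chain. It had 14, 13 and 6 day-0 counts and 21, 52 and 41 day-21 counts. In CPM the highest day-0 mouse, at 1.40, lay just under the lowest day-21 mouse, at 1.48. The mean went from 1.03 ± 0.394 to 2.37 ± 0.819 CPM (SD, n = 3), a log2 fold change of 1.19 (SE 0.43, interval 0.23 to 2.16, edgeR adjusted p = 0.0457). This call was the least secure of the 7, being lost with DESeq2 (adjusted p = 0.0600), with limma-voom (0.0592), on libraries thinned to the lowest total (0.0527), with the replicate number as a block (0.0732), and when any of 4 mice was left out. Those mice were day-0 replicates 2 and 3 (adjusted p = 0.0993 and 0.131) and day-21 replicates 2 and 3 (0.168 and 0.121). Against day-0 replicate 1 alone, the highest control for this gene, the log2 fold change was 0.76 (adjusted p = 0.347).

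LCK is the Src-family kinase that opens receptor signalling. Lck lies on chromosome 4 from 129548344 to 129573641 (minus strand). Its counts were 8, 24 and 9 on day 0 and 114, 153 and 107 on day 21. The mean went from 1.24 ± 0.646 to 7.91 ± 1.29 CPM (SD, n = 3), a 6.21-fold rise with an interval of 1.86 to 3.41 on the log2 scale (edgeR adjusted p = 0.000171). Leaving out single mice gave log2 fold changes of 2.38 to 3.18, and replicate 1 as the only control gave 3.29. The annotated microRNA Mir8119, which shares 0.85% of the exon bases of Lck, had no count.

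ZAP-70 is the Syk-family kinase recruited to phosphorylated CD3 and zeta. Zap70 (chromosome 1, 36761798 to 36782818, plus strand) had 8, 22 and 6 day-0 counts and 35, 41 and 36 day-21 counts. The mean was 1.08 ± 0.643 CPM on day 0 and 2.38 ± 0.148 CPM on day 21 (SD, n = 3). Its log2 fold change of 1.10 (SE 0.43, interval 0.15 to 2.05) missed the threshold at an edgeR adjusted p of 0.0584. Without day-0 replicate 2, whose 1.81 CPM lay near the day-21 values, it was called, with a log2 fold change of 1.73 (adjusted p = 0.0128). Without day-0 replicate 1 it was 0.90 (adjusted p = 0.161), without replicate 3 it was 0.81 (adjusted p = 0.169), and against replicate 1 alone it was 1.56 (adjusted p = 0.0569), none of them called. With all 6 mice it was called with limma-voom (adjusted p = 0.0402), with upper-quartile scaling (0.0446), with scaling by library size alone (0.0123) and on thinned libraries (0.0189).

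Cd28 (chromosome 1, 60716800 to 60773359, plus strand) encodes the main costimulatory receptor of resting T cells. It had the fewest day-21 counts of the set, with 4, 10 and 5 on day 0 and 15, 15 and 24 on day 21. The mean was 0.580 ± 0.219 CPM on day 0 and 1.14 ± 0.296 CPM on day 21 (SD, n = 3), and the highest day-0 mouse (0.824 CPM) lay close to the lowest day-21 mouse (0.895 CPM). The log2 fold change of 0.94 (SE 0.47) had an interval from -0.10 to 1.98 and was not called (edgeR adjusted p = 0.127). Scaling by library size alone was the only alternative that called it (log2 fold change 1.33, adjusted p = 0.0307).

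**Figure D2:**
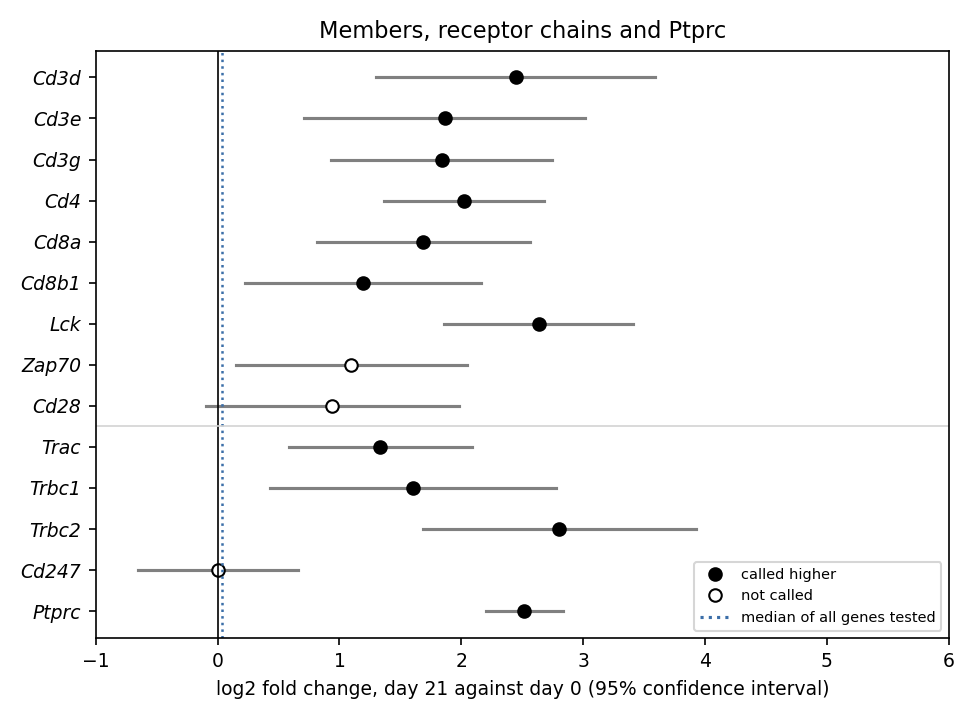
Log2 fold change, day 21 against day 0, with 95% confidence intervals for the 9 genes, the receptor chains that could be tested and Ptprc. Filled points are called higher, open points are not called, and the dotted line is the median of all genes tested at 0.03. Zap70, Cd28 and Cd247 are open, and Cd247 lies at 0.00.

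Expressed per kilobase of exon (RPKM), which allows levels of different genes to be set side by side, the day-0 order ran from Cd8b1 at 0.695 to Cd28 at 0.0948, and each neighbouring pair in that order overlapped between mice. On day 21 Lck led at 2.70 RPKM, followed by Cd4 at 1.85, and their mice did not overlap. Cd8b1 (1.595), Cd8a (1.45), Cd3d (1.36) and Cd3g (1.16) came next, each overlapping its neighbour. Cd3e (0.878) lay below Cd3g with no overlap, Zap70 (0.794) overlapped Cd3e, and Cd28 (0.186) was lowest and apart. With the length of the longest transcript in place of all exons, Lck (3.62) and Cd4 (2.40) still led and Zap70 (1.06) and Cd28 (0.263) were still lowest on day 21, while the 5 genes between them spanned only 1.40 to 1.68.

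Ratios within a mouse do not depend on library scaling, and 6 were computed as log2 of (count + 0.5). The ratio of Cd8a to Cd4 was -0.44, 0.18 and -0.64 on day 0 and -0.31, -0.59 and -0.62 on day 21, and the groups overlapped (difference -0.21, exact permutation p = 0.7, adjusted 0.7 over the 6 ratios). Cd8b1 to Cd8a (difference -0.70, exact p = 0.5) and Lck to Cd3e (0.44, exact p = 0.4) also overlapped, with an adjusted 0.7 for each. With 3 mice against 3 no ratio could have passed a threshold of 0.05.

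Against all white cells the result was similar. Ptprc, which encodes the leukocyte antigen CD45, had 106, 99 and 104 day-0 counts and 812, 894 and 942 day-21 counts, and rose from 9.84 ± 1.45 to 56.1 ± 2.44 CPM (SD, n = 3, log2 fold change 2.52, SE 0.14). The log2 ratio of Cd3e to Ptprc was -5.41, -2.14 and -3.62 on day 0 and -4.13, -3.82 and -3.94 on day 21 (difference -0.23, exact permutation p = 0.7). Without day-0 replicate 2 the difference was 0.56, so its sign rested on that mouse.

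The ratios of Zap70 and Cd28 to Cd3e were lower in every day-21 mouse than in every day-0 mouse, without passing a test. Zap70 to Cd3e had log2 ratios of 1.77, 0.00 and -0.39 on day 0 and -0.39, -0.61 and -0.75 on day 21, a difference of -1.04. The groups barely cleared each other, and the difference was -0.39 without day-0 replicate 1. Cd28 to Cd3e had 0.85, -1.10 and -0.63 on day 0 and -1.58, -2.03 and -1.33 on day 21, a difference of -1.36, or -0.79 without day-0 replicate 1. Both had an exact permutation p of 0.1 and an adjusted 0.3. The high day-0 values come from replicate 1, where Cd3e had 2 counts.

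The antigen-binding chains gave a separate view of the same receptor. Trac, the constant gene of the alpha chain, had 16, 17 and 24 day-0 counts and 58, 100 and 60 day-21 counts, and rose with a log2 fold change of 1.34 (SE 0.34, edgeR adjusted p = 0.00853). Trbc1 had 10, 2 and 6 day-0 counts and 24, 33 and 27 day-21 counts (log2 fold change 1.604, adjusted p = 0.0301). Trbc2 had 8, 5 and 1 day-0 counts and 44, 59 and 45 day-21 counts (log2 fold change 2.80, adjusted p = 0.00125). Trbc1 and Trbc2 are near-identical constant genes of the beta chain, so the split of reads between them is uncertain, although every day-21 mouse had more of each.

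The zeta chain was the exception among the chains tested. Cd247 had 117, 60 and 71 day-0 counts and 98, 157 and 124 day-21 counts, and averaged 7.998 ± 3.44 and 7.96 ± 1.26 CPM (SD, n = 3). Its log2 fold change was 0.00 (SE 0.29, interval -0.65 to 0.66, edgeR adjusted p = 0.993). Of its exon bases, 56.4% are shared with Pou2f1 on the other strand, whose own log2 fold change was -0.14. The strand setting of the counting is not given in the sources used here, so reads of both genes cannot be told apart there.

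Gamma and delta chains, which build the receptor of a separate T cell lineage, were too sparse to test. Trdc had no count on day 0 and 2, 4 and 0 counts on day 21, and Trgc1 had 0, 1 and 0 on day 0 and 7, 4 and 3 on day 21. Trgc2 had 2, 3 and 1 day-0 counts and 1, 5 and 0 day-21 counts, Trgc4 had at most 2 in any mouse, and Trgc3 had none in any. Only Trgc1 was higher in every day-21 mouse than in every day-0 mouse, at counts that barely passed the smallest visible level.

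The variable segments, which are joined to other gene segments when a T cell matures, were also seen. The 108 annotated alpha segments together had 3, 5 and 3 day-0 counts and 20, 15 and 22 day-21 counts. On day 0, 4 of them had a count in some mouse, and on day 21, 18 did. The groups did not overlap in summed CPM (exact permutation p = 0.1). The 22 beta segments had 10, 12 and 3 day-0 counts and 38, 19 and 12 day-21 counts, and these groups overlapped in CPM (exact permutation p = 0.4). No single segment had enough counts to be tested, so the spread of receptors over T cell clones was not measured.

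Another 91 genes of the pathway were listed by role, including the 9 receptor chain genes above, with earlier results of these data known. Of these 67 could be tested, 38 (56.7%) were called higher against 19.6% of all genes, and 1 was called lower. Their median log2 fold change was 1.13. As with the 9 genes, many entered the test through their day-21 counts, since 34 of the 67 had under 10 counts in at least 1 day-0 mouse, so these shares and those of the lists that follow are a description.

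Among the enzymes and adaptors that carry the signal inward from CD3, 16 of the 25 tested were called higher and none lower, with a median log2 fold change of 0.96. Fyb, an adaptor that ties the receptor to integrins and actin, had a log2 fold change of 2.29. Themis, an adaptor of thymocytes and T cells, had one of 2.35 (edgeR adjusted p = 0.0125) over only 0, 5 and 4 day-0 counts. Of these only Themis is largely restricted to the T lineage, and Fyb and Ptprc are also used by other white cells.

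Costimulatory and inhibitory receptors and their ligands included 17 tested genes, of which 9 were called higher and none lower (median log2 fold change 1.29). Tnfrsf9 (4-1BB), which activated T cells put on their surface, had 2, 0 and 1 day-0 counts and 39, 38 and 40 day-21 counts, which is at least 8.72-fold higher than the smallest visible level of 3 counts per library (edgeR adjusted p = 0.000212). Cd6 and Cd5, related scavenger-type receptors that tune receptor signalling, had log2 fold changes of 3.54 (adjusted p = 0.000797) and 2.33 (0.00220). Lag3, an inhibitory receptor that binds MHC class II, had one of 2.28 (adjusted p = 0.00242). Day-0 counts were low, with 5, 4 and 0 for Cd6, 8, 3 and 4 for Cd5 and 10, 8 and 2 for Lag3. These surface receptors are named because they were called, while 8 of the 17 tested genes, like Cd28, were not. The differences between them and Cd28 were not tested.

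Transcription factors of T cell lineages were mixed. Of 12 tested, 4 were called higher and 1 lower, with a median log2 fold change of 0.60. Runx3, needed for the CD8 lineage, had a log2 fold change of 2.11, Ikzf1 (Ikaros, of lymphoid development) of 1.71, Tbx21 (T-bet, of type 1 responses) of 1.57 (edgeR adjusted p = 0.0243) and Tcf7 of 1.25 (adjusted p = 0.0168). Bcl6, the factor of follicular helper T cells that many other cells also express, was the gene that fell, by 1.07 on the log2 scale.

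Of the cytokine, cytokine receptor and granule genes only 9 of 18 could be tested, and 6 of these were called higher and none lower (median log2 fold change 2.17). Il7r, the survival receptor of naive and memory T cells, had a log2 fold change of 2.77, and Il2ra, which activated and regulatory T cells carry, one of 2.49 (edgeR adjusted p = 0.00267). Ccl5, a chemokine of effector T and NK cells, went from 2.06 ± 1.38 to 12.7 ± 0.548 CPM (SD, n = 3, log2 fold change 2.58). The granzyme gene Gzmk had a log2 fold change of 2.24 (edgeR adjusted p = 0.0285). Day-0 counts were low, with 0, 8 and 1 for Gzmk, 4, 6 and 2 for Il7r and 5, 6 and 2 for Il2ra. Ifng and Il17a did not pass the smallest visible level in any mouse and Il13 had no count, so their absence was not shown.

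**Figure D3:**
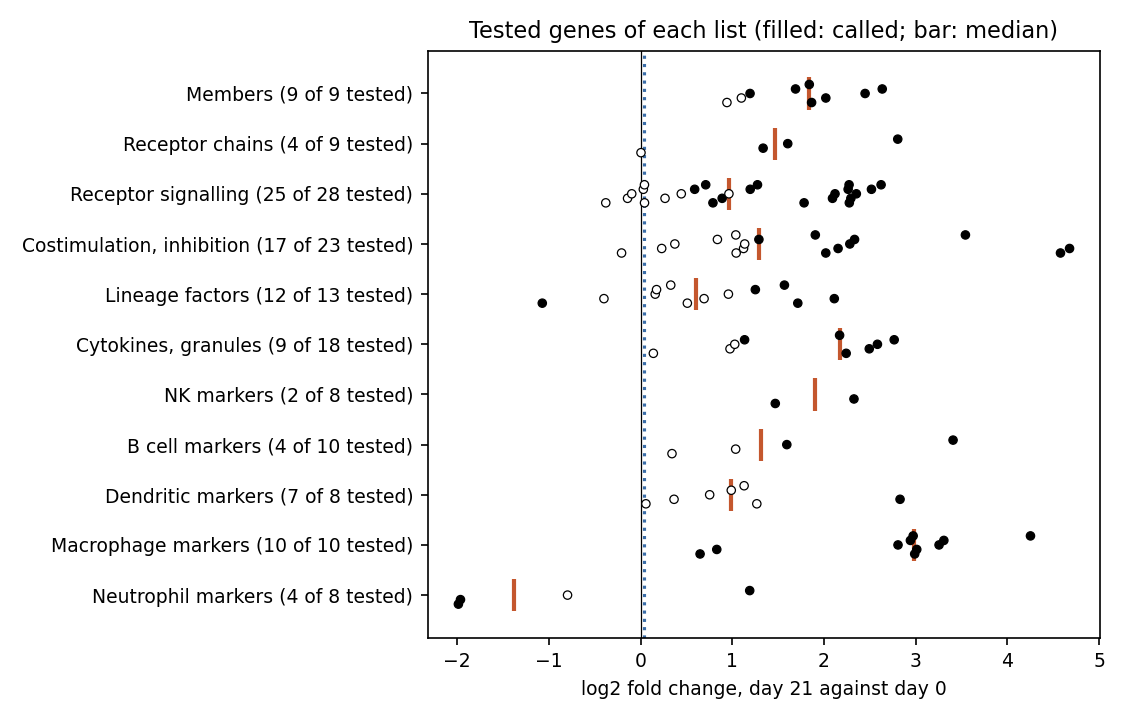
Log2 fold change, day 21 against day 0, of every tested gene in each list, with filled points for called genes, open points for genes not called and an orange bar at each list's median. The dotted line is the median of all genes tested, 0.03. The medians of the 9 genes (1.84) and of cytokine and granule genes (2.17) lie to the right of lineage factors (0.60), and macrophage markers lie farthest right (2.98).

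Some other cells share these transcripts, and the values of their markers are given here because their part in the results was not tested. The summed level of 8 NK cell markers was 1.40 to 1.65 CPM on day 0 and 3.70 to 4.81 CPM on day 21. Klrd1 (log2 fold change 2.33, over 0, 5 and 2 day-0 counts) and Klrk1 (1.47), the only ones that could be tested, were called higher. CD8 T cells also use both. The defining NK gene Ncr1 and the genes Klre1 and Klra4 stayed at or under 3 counts in every mouse. The 8 dendritic cell markers summed to 19.5 to 22.7 CPM on day 0 and 39.0 to 52.8 CPM on day 21, and 1 of 7 tested (14.3%, against 19.6% of all genes), Itgax, which macrophages also carry, was called higher (log2 fold change 2.83).

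Macrophage markers rose together. All 10 were called higher, with a median log2 fold change of 2.98, and their sum went from 185 to 237 CPM on day 0 to 971 to 1305 CPM on day 21. Lyz2, a lysozyme gene, had a log2 fold change of 3.31 and the complement genes C1qa and C1qb ones of 3.25 and 3.01. Itgam, the integrin alpha M chain, had one of 4.25, over only 1, 10 and 5 day-0 counts. Of its exon bases, 68.7% are shared with Gm49368 on the same strand. The mean sum of macrophage markers was 5.56 times as high on day 21 as on day 0, and that of the 9 T cell genes 3.72 times as high. The difference between these was not tested.

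Kidney epithelial genes moved the other way, with 9 of 10 called lower and a median log2 fold change of -1.15. Kap, an androgen-regulated gene of the proximal tubule, had a log2 fold change of -3.01, Slc34a1, the phosphate transporter of the proximal tubule, of -2.47, Lrp2 (megalin) of -2.37 and Slc12a1, the salt transporter of the thick ascending limb, of -1.65. Scaling changed the level of all fold changes together. The median of all genes was -0.00 to 0.12 on the log2 scale with TMM, RLE or upper-quartile scaling and 0.42 with library size alone, and the share of called genes that were higher was 55.8%, 53.0%, 63.0% and 81.7% in that order. Relative to the median of all genes the median of the 9 was 1.81, 1.80, 1.81 and 1.81, and the lowest of the 9, Cd28, stayed 0.91 above it.

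**Figure D4:**
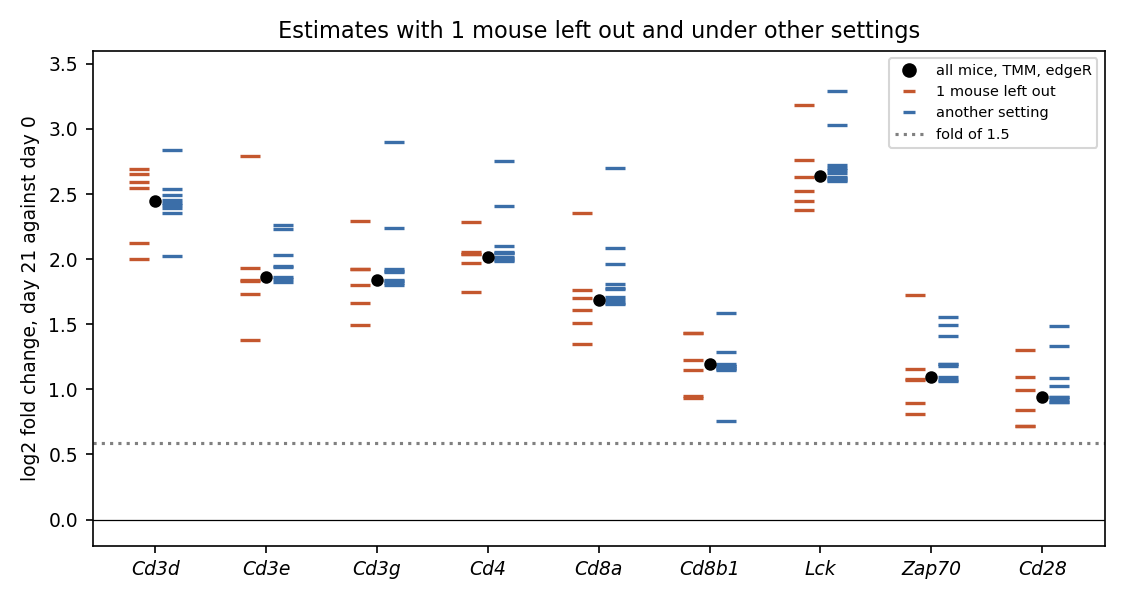
Log2 fold change of each of the 9 genes with all 6 mice (black), with each mouse left out (orange) and under other settings (blue), with a dotted line at a fold of 1.5. The Cd3e estimate without both fat-carrying day-0 mice, 4.10, lies above the top of the axis and is not seen. All estimates are above 0 and above the dotted line, and the highest orange mark of Cd3e, 2.79, is the estimate without day-0 replicate 2.

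The genes whose pattern over the 6 mice was most like the mean of the 9, by Pearson's r on log2(CPM + 1) among 13139 other genes, were Cd52 (r = 0.998), Prickle3 (0.998), Snrpc (0.997), Sept4 (0.996) and Dbnl (0.996). Cd52, a surface glycoprotein of lymphocytes and other white cells, had 30, 83 and 37 day-0 counts and 353, 548 and 484 day-21 counts, so day-0 replicate 2 was its highest control as it was for most of the 9. With 6 mice in 2 separate groups such values are common, and 759 genes had an r over 0.95.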

How the data were processed

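The authors sequenced mouse kidney RNA as paired-end reads and deposited raw counts per gene, 1 column for each mouse, without normalization. The submitters' processing notes name TopHat and mm10, and the counting program and its strand setting are not given in the sources used here. Identifiers were those of GENCODE mouse release M21 (GRCm38). The labels put 3 mice in each group, and p-values judge differences against the spread between these mice. The edgeR test also draws on the spread of other genes, which the permutation test does not.

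Counts were analysed with edgeR 4.0.16 in R 4.3.3 (filterByExpr at its settings of 10 counts and a total of 15, TMM, quasi-likelihood test, Benjamini-Hochberg over the 16592 genes tested). A call needed a fold over 1.5 besides an adjusted p under 0.05, thresholds that the study uses. CPM values use TMM library sizes, and RPKM divides them by exon length. Single values and ratios were compared with a two-sided exact permutation test over mice. Floors of 3 counts cover counting error only. Steps were tested on simulated data. No pair of mice was a duplicate, with a chi-square per gene of 6.78 to 23.6 within groups.

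The 9 genes and the lists were chosen with earlier results of these data known. Beside the 9 and the receptor chains, the genes named are up to 4 called genes of each list with the largest fold change and a mean of at least 10 counts, marker genes at or under 3 counts, and the 5 genes most alike. An item that this rule selects is not reported here. The fat markers, Bcl6 and genes sharing exons were named after their values were seen. Alternatives were other scalings, filters and thresholds, DESeq2 1.42.0, limma-voom (limma 3.58.1), a replicate block, thinning, another transcript length, and each mouse left out.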

Additional observations from a re-analysis of the deposited data

How the results depend on the processing

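Of 138 alternative estimates for the 9 genes, none changed direction, 122 kept their side of the threshold, 10 lost a call and 6 gained one. The 138 include the estimates with replicate 1 as the only day-0 mouse, which say nothing of stability. The groups did not overlap for any of the 9, so leaving out mice was unlikely to change a direction. Fewer genes pass a mean of at least 50 counts: 3 of the 9 could then be tested and all 3 were called higher. So were 17 of 34 tested genes of the other T cell lists and 2540 of 13143 genes in all. The count of called genes among the 9 was otherwise 5 to 9. Over all genes, 3249 were called higher and 2572 lower, against 5985 and 1338 with library size alone and 1918 and 1254 when a fold over 2 and an adjusted p of 0.01 were required. At any fold, 3 genes of the T cell lists were called lower, against 1.

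With 1 mouse left out, 6 to 7 of the 9 were called higher, as were 31 to 37 of the 68 to 75 list genes tested. Over all genes, 2844 to 3242 of 16816 to 17225 were. The log2 ratio difference then ran from -0.38 to 0.03 for Cd8a to Cd4, from -1.08 to 0.56 for Cd3e to Ptprc, from -1.11 to -0.07 for Cd8b1 to Cd8a, from 0.16 to 0.98 for Lck to Cd3e, from -1.47 to -0.39 for Zap70 to Cd3e and from -1.76 to -0.79 for Cd28 to Cd3e. The sign of the first and second turned without day-0 replicate 2 (0.033 and 0.56), and the cause was not tested.

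The replicate numbers are shared by different mice and pair nothing by design. Deviations of same-numbered mice correlated at -0.03, 0.18 and 0.11, and replicate 1 did not correlate best with its own number. Nor did day-0 replicate 3, which correlated at 0.13 with day-21 replicate 1. With the replicate number as a block, 6 of the 9 genes were called higher, Cd8b1 being the member lost. So were 37 of 67 list genes tested and 3235 of 16592 genes in all. Depth limits the fold changes, since the 9 genes had only 2 to 33 counts in single day-0 mice.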

Other observations

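Immunoglobulin transcripts, made by B cells and plasma cells, did not all move the same way. Variable segments of immunoglobulins summed to 100, 389 and 98.0 CPM on day 0 and to 46.7, 97.3 and 60.9 CPM on day 21 (exact permutation p = 0.1), so every day-21 mouse lay, by a small margin, below every day-0 mouse, and the constant genes, led by Igha of mucosal IgA, overlapped between groups (exact permutation p = 0.5). Of 10 B cell markers 4 could be tested and 2 were called higher. The markers summed to 6.92, 23.2 and 4.33 CPM on day 0 and 24.1 to 43.4 CPM on day 21, most of it from Ighm. Cd22, an inhibitory receptor of B cells, had a log2 fold change of 3.41 (edgeR adjusted p = 0.00766), over 0, 5 and 0 day-0 counts. Ighm, the IgM heavy chain, had one of 1.59 (edgeR adjusted p = 0.0341), over 51, 232 and 23 day-0 counts. Ms4a1, Pax5 and Blk stayed at or under 3 counts in every mouse.

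Of 4 tested neutrophil markers, S100a8 and S100a9, the calprotectin subunits, were called lower with log2 fold changes of -1.97 and -1.99, and Csf3r was called higher with one of 1.19. Mpo and Elane, genes of immature neutrophils, had no count in any mouse.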
